A study of Mus musculus with 16 samples.

Results

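Chemokine ligands are small secreted proteins that steer leukocytes, and 6 of their genes were followed here: Ccl3, Ccl4, Ccl5, Xcl1, Cxcl9 and Cxcl10, ligands that T cells are known to make or to answer. The members were chosen by name, as 6 rows of the 54456 gene rows of the deposited matrix of read counts, of which 33950 had a count in any library. The libraries came from sorted T cells of OT-I mice, a line whose transgenic antigen receptor recognises an ovalbumin peptide and is carried mostly by CD8 T cells. Cells were taken from 4 groups of 4 libraries each: visceral adipose tissue (VAT) of mice on a high fat diet (HFD, 60% of calories from fat), lymph nodes (LN) of HFD mice, VAT of lean mice and LN of lean mice. All mice had 8 weeks on their diet, all carried the OT-I receptor, and no library came from T cells without it. A further header row of the matrix holds the entry Neg-OVA, whose meaning is not explained. The labels call the cells freshly isolated, whereas the series' design text gives an overnight culture before the sort. Neither source says whether a library held cells of 1 mouse or of several, or whether VAT and LN libraries came from the same mice, so p-values measure the spread between these libraries. The study's comparisons are of tissue within a diet and of diet within a tissue.

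Ccl3, Ccl4 and Ccl5 draw T cells, macrophages and other leukocytes, and activated CD8 T cells release them with Ifng (interferon gamma). Xcl1 is made by CD8 T cells and natural killer cells and binds Xcr1, which marks the dendritic cells that cross-present antigen. Cxcl9 and Cxcl10 bind Cxcr3 on activated T cells. Both are induced by interferons and are best known as products of macrophages, endothelium and stroma, which is background here and not a measurement. In obese fat, CD8 T cells and the ligands that draw macrophages are known to accumulate.

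Ccl3 and Ccl4 are neighbouring coding genes on chromosome 11, where Ccl5 lies beside Ccl9. Xcl1 is on chromosome 1, and Cxcl9 and Cxcl10 lie on chromosome 5. By start position Art3 comes between those 2, and its exons overlap those of Cxcl10 on the opposite strand. Gene order is that of coding genes in the GENCODE mouse annotation. RefSeq start-site windows, 250 bases before to 50 bases after the transcription start in GRCm38.p6, were at hand for 4 of the 6 members (Ccl3, Xcl1, Cxcl9 and Cxcl10). The windows of Cxcl10 and Cxcl9 are printed because these neighbours share a receptor and an inducer but had the highest and the lowest counts of the 4 in VAT of HFD mice. Both lie on the minus strand, Cxcl10 at chr5:92348840-92349139 and Cxcl9 at chr5:92328030-92328329. Capitals mark letters that match an interferon-stimulated response element, an NF-kB motif or an AP-1 motif, on either strand.
Cxcl10: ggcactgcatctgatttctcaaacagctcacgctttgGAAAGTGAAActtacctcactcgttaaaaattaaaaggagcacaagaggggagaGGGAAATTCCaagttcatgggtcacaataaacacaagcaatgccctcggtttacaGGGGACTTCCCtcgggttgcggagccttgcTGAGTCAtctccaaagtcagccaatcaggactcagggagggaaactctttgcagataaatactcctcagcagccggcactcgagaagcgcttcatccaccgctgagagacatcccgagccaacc
Cxcl9: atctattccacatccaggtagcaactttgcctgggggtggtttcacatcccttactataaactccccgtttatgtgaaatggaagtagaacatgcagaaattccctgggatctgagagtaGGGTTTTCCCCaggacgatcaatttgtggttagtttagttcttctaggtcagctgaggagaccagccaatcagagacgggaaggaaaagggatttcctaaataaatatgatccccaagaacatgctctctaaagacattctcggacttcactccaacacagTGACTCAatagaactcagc
The motifs searched on both strands were GAAANNGAAA (interferon-stimulated response element), GGGNNNNNCC (NF-kB), TGANTCA (AP-1) and TTCNNNGAA (GAS, the interferon gamma activation site). Positions count from the start site. Cxcl10 held the interferon element as GAAAGTGAAA at -213 to -204. Its NF-kB matches were GGGAAATTCC at -159 to -150 and the overlapping GGGGACTTCC and GGGACTTCCC between -104 and -94, and its AP-1 match was TGAGTCA at -74 to -68. Cxcl9 held overlapping NF-kB matches between -130 and -120 and TGACTCA at 32 to 38, and no interferon element or GAS in this window. The windows of Ccl3 and Xcl1 held none of the 4 motifs. Of 32851 windows of the same length, 3.44% held the interferon element, 50.8% the NF-kB letters, 7.81% the AP-1 letters and 8.3% GAS. A match describes letters and is not a measured binding site.

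**Figure D1:**
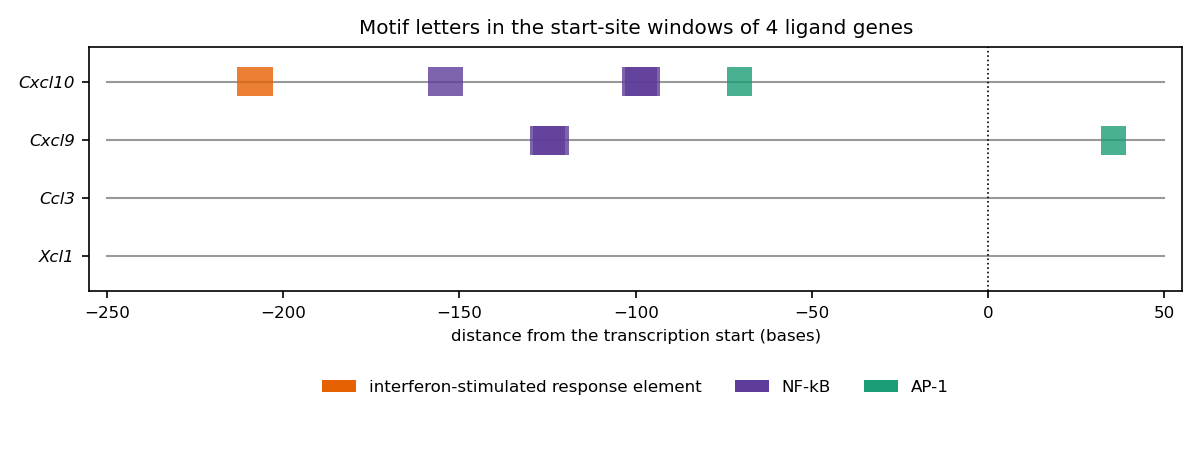
Positions of motif letters in the windows of Cxcl10, Cxcl9, Ccl3 and Xcl1, as distance in bases from the transcription start (dotted line); bars are matches of the interferon-stimulated response element, NF-kB and AP-1. Cxcl10 has all 3 kinds within 213 bases before its start, and Ccl3 and Xcl1 have none.

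The deposited counts summed to between 40212388 and 65957407 per library. In 3 VAT libraries (HFD VAT 1, HFD VAT 3 and lean VAT 1), 11.2% to 13.1% of the genes at a median of 10 CPM or more (CPM, the library's counts rescaled to a common total with TMM factors) had at most 3 counts, against 0.797% to 5.31% in the other 13 libraries. Cd8a averaged 2077 ± 215 CPM in HFD VAT, 665 ± 112 CPM in HFD LN, 1840 ± 145 CPM in lean VAT and 718 ± 127 CPM in lean LN (SD, n = 4 each). Cd8b1, the gene of the other CD8 chain, went the other way. It averaged 1228 ± 120 CPM in HFD VAT, 2072 ± 133 CPM in HFD LN, 1368 ± 280 CPM in lean VAT and 2058 ± 99.7 CPM in lean LN. Cd4 stayed at or below 4.76 CPM in every library. A level of 3 counts, taken as the limit of detection, came to 0.0437 to 0.0804 CPM. In bulk RNA, fewer cells that make a transcript and less transcript per cell cannot be told apart.

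The members made up 98.6% of the counts of all 38 chemokine ligand genes examined, 1797522 counts against 25817 for the 32 others. Of the 6, 5 passed the filter on low counts and were tested; Cxcl9 did not. In each of the 5, every VAT library lay above every LN library of the same diet, in HFD mice and in lean mice. Over all 15675 genes tested, 7.21% were higher without overlap in HFD VAT against HFD LN and 7.24% in lean VAT against lean LN. With edgeR's quasi-likelihood test and Benjamini-Hochberg adjustment, 2 of the 5 (Ccl5 and Cxcl10) rose in HFD VAT against HFD LN, where 2.68% of all tested genes rose. In lean VAT against lean LN, 3 of the 5 (Ccl5, Xcl1 and Cxcl10) rose, where 2.12% of all tested genes rose. The median log2 difference of the 5 was 5.64 in HFD mice and 6.18 in lean mice, beside -0.10 and 0.00 over all tested genes. Ccl3 and Cxcl10 had counts in 3 of the 8 LN libraries each and passed the filter through VAT, so these counts and medians describe the members and are no test of them as a set.

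**Figure D2:**
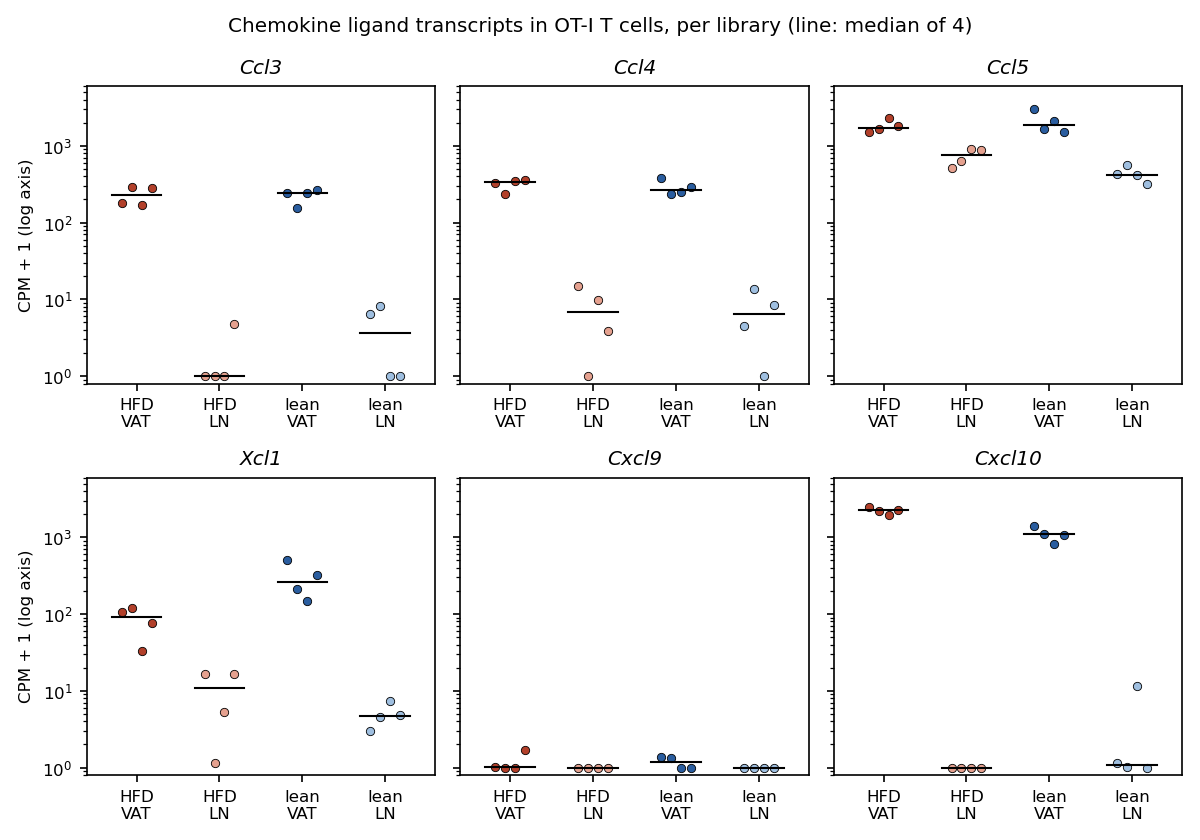
CPM + 1 on a log axis for each member in the 16 libraries, grouped as HFD VAT, HFD LN, lean VAT and lean LN; points are libraries and lines are medians of 4. Ccl5 is high in every library, Cxcl10 is above 800 CPM in every VAT library and at most 10.6 CPM in LN, and Cxcl9 stays below 1 CPM throughout.

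Cxcl10, the interferon-induced ligand of Cxcr3, had the widest separation between the tissues. Its level was 2488, 2213, 1929 and 2272 CPM in the HFD VAT libraries, and no count was found in any of the 4 HFD LN libraries. In lean mice it was 1393, 1111, 824 and 1062 CPM in VAT, against 0.146, 0.018, 10.6 and 0 CPM in LN. The VAT libraries of each diet were all far above their LN libraries, and lean LN 3 alone held 550 of the 561 counts of lean LN. Cxcl10 was higher in HFD VAT than in HFD LN (edgeR quasi-likelihood, adjusted p = 0.00297). Its HFD VAT mean was 37103-fold a floor of 3 counts per library in HFD LN. That floor covers counting error only and is no lower bound on the fold, since lean LN libraries ran from 0 to 550 counts. Cxcl10 was 406-fold higher in lean VAT than in lean LN (log2 difference 8.67 ± 1.92 SE, edgeR adjusted p = 0.0346). The lean call depended on which libraries were kept: leaving out any of the other 7 lean libraries gave adjusted p between 0.0549 and 0.0896, whereas without lean LN 3 the log2 difference was 14.13 with adjusted p = 6.86e-05. Cxcl10 exons overlap those of Art3 on the opposite strand, which reached at most 13.0 CPM in any library.

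Cxcl9, the neighbour of Cxcl10 and a ligand of the same receptor, was almost without counts. It had 0.0218, 0, 0 and 0.699 CPM in HFD VAT, 0.362, 0.35, 0 and 0 CPM in lean VAT, and 0 in all 8 LN libraries. These levels were 31 counts in all of HFD VAT and 37 in all of lean VAT, too few for the filter. Cxcl10 had 380822 counts in the same HFD VAT libraries and 210950 in the lean VAT libraries.

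Ccl5, a ligand that memory and effector CD8 T cells are known to keep as ready transcript, was present in every library. It had 1494, 1628, 2273 and 1805 CPM in HFD VAT, against 516, 641, 919 and 889 CPM in HFD LN. In lean mice it had 2994, 1674, 2073 and 1503 CPM in VAT, against 423, 558, 415 and 316 CPM in LN. The VAT libraries lay above the LN libraries in both diets, by a smaller fold than for any other tested member. Ccl5 was 2.43-fold higher in HFD VAT than in HFD LN (log2 1.28 ± 0.25 SE, edgeR adjusted p = 0.00863) and 4.81-fold higher in lean VAT than in lean LN (log2 2.27 ± 0.26 SE, edgeR adjusted p = 0.000165). Both calls held under every alternative run.

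Xcl1, the ligand of Xcr1, had 106, 118, 31.6 and 75.6 CPM in HFD VAT, against 15.4, 0.137, 4.25 and 15.4 CPM in HFD LN. In lean mice it had 508, 209, 146 and 318 CPM in VAT, against 2.01, 3.56, 6.4 and 3.9 CPM in LN. Every VAT library was above every LN library of its diet, and HFD LN was the more scattered of the LN groups. Xcl1 was 74.4-fold higher in lean VAT than in lean LN (log2 6.22 ± 1.09 SE, edgeR adjusted p = 0.00424), which held in every alternative run. In HFD mice the ratio of the means was 9.45 (log2 3.24 ± 0.94 SE) and did not pass the test (edgeR adjusted p = 0.0725). Without HFD LN 2, the library with 0.137 CPM, that adjusted p was 0.0332, and DESeq2 gave 0.0017. Xcl1 exons overlap Gm20743 on the opposite strand, at most 25.7 CPM in any library.

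Ccl3 and Ccl4, neighbouring genes for ligands that draw macrophages and T cells, gave like levels. Ccl3 had 176, 285, 170 and 283 CPM in HFD VAT, against 0, 0, 0 and 3.81 CPM in HFD LN, and 240, 155, 244 and 266 CPM in lean VAT, against 5.38, 7.1, 0 and 0 CPM in lean LN. Ccl4 had 324, 235, 351 and 356 CPM in HFD VAT, against 13.8, 0, 8.77 and 2.81 CPM in HFD LN, and 381, 235, 247 and 289 CPM in lean VAT, against 3.47, 12.6, 0 and 7.45 CPM in lean LN. Each VAT library was above 150 CPM for both genes, and each LN library was below 14 CPM. Neither passed edgeR's test under the main filter, and in both LN groups some libraries were at 0 and others were not. For Ccl3 the log2 difference was 7.91 ± 2.37 SE in HFD mice (adjusted p = 0.0819) and 6.18 ± 2.19 SE in lean mice (adjusted p = 0.194). For Ccl4 it was 5.64 ± 1.56 SE in HFD mice (adjusted p = 0.0579) and 5.61 ± 1.56 SE in lean mice (adjusted p = 0.0788). DESeq2 and limma voom called both genes in both diets, with adjusted p between 0.000394 and 0.0401, and without HFD LN 4, the HFD LN library with Ccl3 counts, edgeR's adjusted p for Ccl3 was 0.0147. With a filter of 5 CPM in 4 libraries, edgeR called Ccl4 in HFD mice (adjusted p = 0.0425).

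Within VAT, diet separated Cxcl10 and Xcl1 in opposite directions, and neither passed edgeR's test. All 4 HFD VAT libraries were above all 4 lean VAT libraries for Cxcl10, at 2225 ± 230 CPM against 1097 ± 233 CPM (SD, n = 4 each), a ratio of 2.03. All 4 HFD VAT libraries were below all 4 lean VAT libraries for Xcl1, at 83.0 ± 38.7 CPM against 295 ± 159 CPM, so that lean VAT was 3.56-fold higher. These were 2 of the 5 tested members, where 3.22% of all tested genes were free of overlap in either direction. The log2 difference of Cxcl10 was 1.02 ± 1.39 SE (edgeR adjusted p = 1) and that of Xcl1 was -1.83 ± 0.89 SE (edgeR adjusted p = 0.643). The fit gives each gene 1 dispersion over all 16 libraries, for Cxcl10 with LN libraries at or near 0 among them. Fitted on the 2 VAT groups alone, edgeR's adjusted p was 0.223, and limma voom with quality weights, which weights each value, gave log2 1.14 with adjusted p = 0.000103. No alternative called Xcl1.

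Ccl3, Ccl4 and Ccl5 overlapped between the diets in VAT. Ccl3 averaged 229 ± 64.3 CPM in HFD VAT and 226 ± 48.8 CPM in lean VAT. Ccl4 averaged 316 ± 55.8 CPM in HFD VAT and 288 ± 66.4 CPM in lean VAT. Ccl5 averaged 1800 ± 340 CPM in HFD VAT and 2061 ± 666 CPM in lean VAT (SD, n = 4 for each of these means), with lean VAT 1 the highest library of all. Their log2 differences were 0.02 ± 1.75, 0.14 ± 1.28 and -0.20 ± 0.25 SE (edgeR adjusted p = 1 for each), and without lean VAT 1 that of Ccl5 was 0.04. Over all tested genes 9, or 0.0574%, passed in this comparison. Without the 3 VAT libraries in which many genes had few counts, the log2 difference was 1.18 for Cxcl10 and -1.19 for Xcl1.

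**Figure D3:**
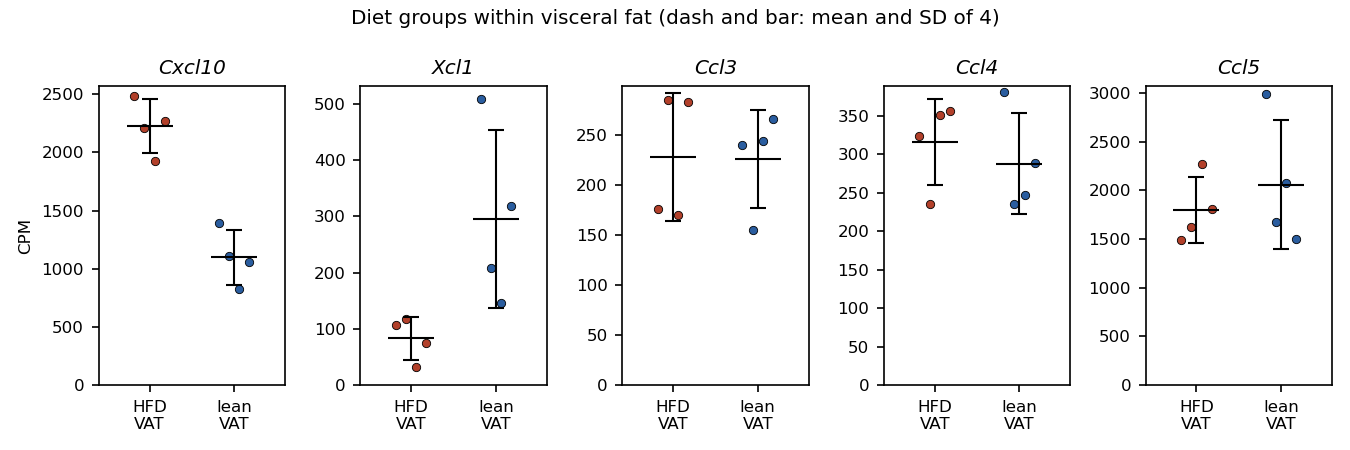
CPM of the 5 tested members in HFD VAT (left) and lean VAT (right) on linear axes from 0; points are libraries, dashes with bars are mean and SD of 4. The diet groups are apart for Cxcl10 (HFD higher) and Xcl1 (HFD lower) and overlap for Ccl3, Ccl4 and Ccl5.

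In LN no member passed the test of diet and all overlapped between the diets. Ccl5 averaged 741 ± 195 CPM in HFD LN and 428 ± 99.7 CPM in lean LN (SD, n = 4 each), a log2 difference of 0.79 ± 0.25 SE with adjusted p = 1 by edgeR. HFD LN 1, at 516 CPM, lay below lean LN 2, at 558 CPM. Xcl1 averaged 8.78 ± 7.79 CPM in HFD LN and 3.97 ± 1.82 CPM in lean LN, a log2 difference of 1.15 ± 0.88 SE (edgeR adjusted p = 1), and limma voom gave -0.03. Ccl4 averaged 6.33 ± 6.15 CPM in HFD LN and 5.89 ± 5.43 CPM in lean LN, and Ccl3 averaged 0.952 ± 1.9 CPM in HFD LN and 3.12 ± 3.67 CPM in lean LN. Of all tested genes 0 passed by edgeR, 0%, with 529 at an unadjusted p under 0.05, 236 by DESeq2 and 3 by limma voom, and 2.26% were free of overlap in either direction.

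Whether diet acted differently in VAT than in LN was fitted as an interaction for each tested member, and none passed by edgeR, where 0.0191% of all tested genes did. It was 11.08 ± 3.19 SE on the log2 scale for Cxcl10 (adjusted p = 0.505), a fitted value that rests on the 561 counts of lean LN against 0 in HFD LN. It was -0.99 ± 0.35 SE for Ccl5 (adjusted p = 0.641) and -2.98 ± 1.25 SE for Xcl1 (adjusted p = 0.754). For Ccl3 it was 1.73 ± 2.50 SE and for Ccl4 0.03 ± 1.81 SE, both with adjusted p = 1. Of all tested genes, 965 had an unadjusted p under 0.05.

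The order of the levels among the 4 groups differed by gene. For Cxcl10 it was HFD VAT, lean VAT and then the LN groups, each VAT group apart from its neighbour in every library. For Xcl1 it was lean VAT, HFD VAT and then the LN groups, which overlapped each other. For Ccl5 it was lean VAT, HFD VAT, HFD LN and lean LN, with overlap within VAT and within LN. Ccl3 and Ccl4 had both VAT groups, overlapping, above both LN groups.

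Levels were compared between genes only per length, as CPM per kb of all annotated exons together (lengths from GENCODE: 2252 bases for Cxcl10, 523 for Xcl1). By CPM alone, Cxcl10 averaged 1097 and Xcl1 295 in lean VAT. Orders and shares per kb rest on these lengths, and the library kit is unresolved. On that scale Ccl5 was the most abundant member in all 16 libraries. In HFD VAT the mean levels were 1875 CPM per kb for Ccl5, 988 for Cxcl10, 479 for Ccl4, 299 for Ccl3 and 159 for Xcl1. In lean VAT they were 2147 CPM per kb for Ccl5, 564 for Xcl1, 487 for Cxcl10, 436 for Ccl4 and 295 for Ccl3. Cxcl10 was thus second in HFD VAT, above Ccl4 in 4 of 4 libraries, whereas in lean VAT Xcl1 was above Cxcl10 in 2 of 4 libraries and below it in the others. Ccl4 was above Ccl3 in 3 of 4 HFD VAT libraries and in 4 of 4 lean VAT libraries.

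As a share of the 6 members' summed CPM per kb, Cxcl10 was 26.1 ± 3.96% in HFD VAT and 12.6 ± 2.31% in lean VAT, and Xcl1 was 4.27 ± 2.15% in HFD VAT and 13.9 ± 4.58% in lean VAT (SD, n = 4 each). The lowest Cxcl10 share in HFD VAT was 21.2%, against a highest of 15.4% in lean VAT, and the highest Xcl1 share in HFD VAT was 6.23%, against a lowest of 7.98% in lean VAT. Ccl5 was 49.1 ± 6.59% in HFD VAT and 54.4 ± 6.68% in lean VAT. In LN nearly all of the sum was Ccl5, at 96.3 ± 3.61% in HFD LN and 95.4 ± 1.11% in lean LN. The summed CPM of the 6 ranged from 4480 to 4792 in HFD VAT, 546 to 932 in HFD LN, 3383 to 5517 in lean VAT and 327 to 582 in lean LN.

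**Figure D4:**
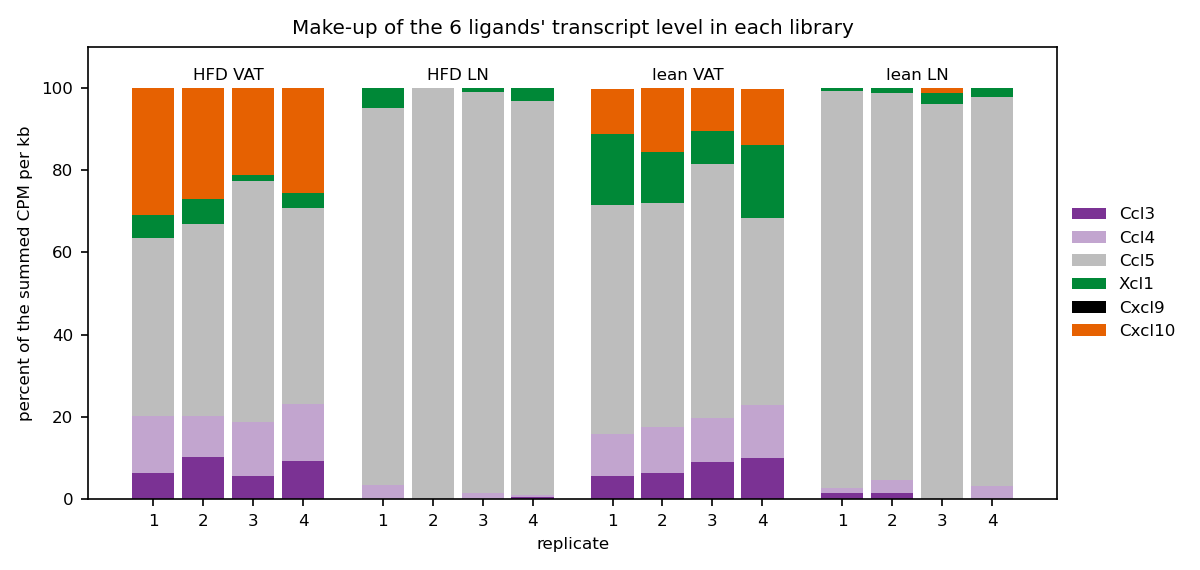
Percent of the 6 members' summed CPM per kb in each library, by group and replicate; colours are genes. Cxcl10 takes 21.2% or more in each HFD VAT library and 15.4% or less in each lean VAT library, and Ccl5 takes over 90% in each LN library.

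Other chemokine ligand genes were rare. Of 32, 6 had no count, 7 were tested, and 7 reached a group mean of 5 CPM. By edgeR none of the 7 tested changed in HFD VAT against HFD LN and 1 rose in lean VAT against lean LN, where 2.12% of all tested genes rose. That gene was Pf4, with 16.8, 26.2, 20.1 and 8.11 CPM in lean VAT and no count in lean LN (adjusted p = 0.0437). Leaving out any 1 of the 8 lean libraries lost that call (adjusted p between 0.0784 and 0.103). Pf4 and Ccl7 had no count in LN and passed the filter through VAT, so the calls describe the list and are no test of it. In HFD mice Pf4 had 0, 6.35, 0.696 and 11.2 CPM in VAT, against 0 in each LN library. Its HFD comparison (edgeR adjusted p = 0.051) passed without HFD VAT 1 (adjusted p = 0.0102), with DESeq2 (1e-05), with limma voom (0.0146) and with a filter of 5 CPM in 4 libraries (0.043).

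The remaining ligands with a group mean of 5 CPM or more reached at most 47.7 CPM in any library. Ccl2, the main ligand for monocytes, had at most 0.0466 CPM in HFD VAT and at most 0.425 CPM in HFD LN, against 46.7, 7.94, 8.05 and 0 CPM in lean VAT and 0 in lean LN. Ccl7 had 0, 0, 0 and 8.27 CPM in HFD VAT and 23.2, 2.32, 11.3 and 4.12 CPM in lean VAT. Ccl8 had 0 in HFD VAT and 47.7, 5.69, 0 and 0 CPM in lean VAT, and neither Ccl7 nor Ccl8 had a count in LN. Ccl9, beside Ccl5 on chromosome 11, reached 23.0 CPM in HFD VAT 4 and at most 11.3 CPM in lean VAT. Ccl25 and Ccl27a reached at most 28.0 and 16.5 CPM in any library.

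Of the 6 genes for receptors of these ligands, 4 were tested and 1 rose in VAT in each diet, Cxcr3. Over all tested genes 2.68% rose in HFD mice and 2.12% in lean mice. Cxcr3, the receptor of Cxcl9 and Cxcl10, averaged 793 ± 144 CPM in HFD VAT and 193 ± 44.7 CPM in HFD LN, and 598 ± 104 CPM in lean VAT and 119 ± 13.3 CPM in lean LN (SD, n = 4 each). Its log2 difference was 2.04 ± 0.20 SE in HFD mice (edgeR adjusted p = 2.84e-05) and 2.34 ± 0.20 SE in lean mice (edgeR adjusted p = 1.58e-05). Xcr1 averaged 23.1 ± 21.3 CPM in HFD VAT and 2.48 ± 4.6 CPM in HFD LN, and 24.7 ± 12.8 CPM in lean VAT and 1.4 ± 2.59 CPM in lean LN (edgeR adjusted p = 0.397 in HFD mice and 0.36 in lean mice; limma voom 0.00989 in lean mice).

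**Figure D5:**
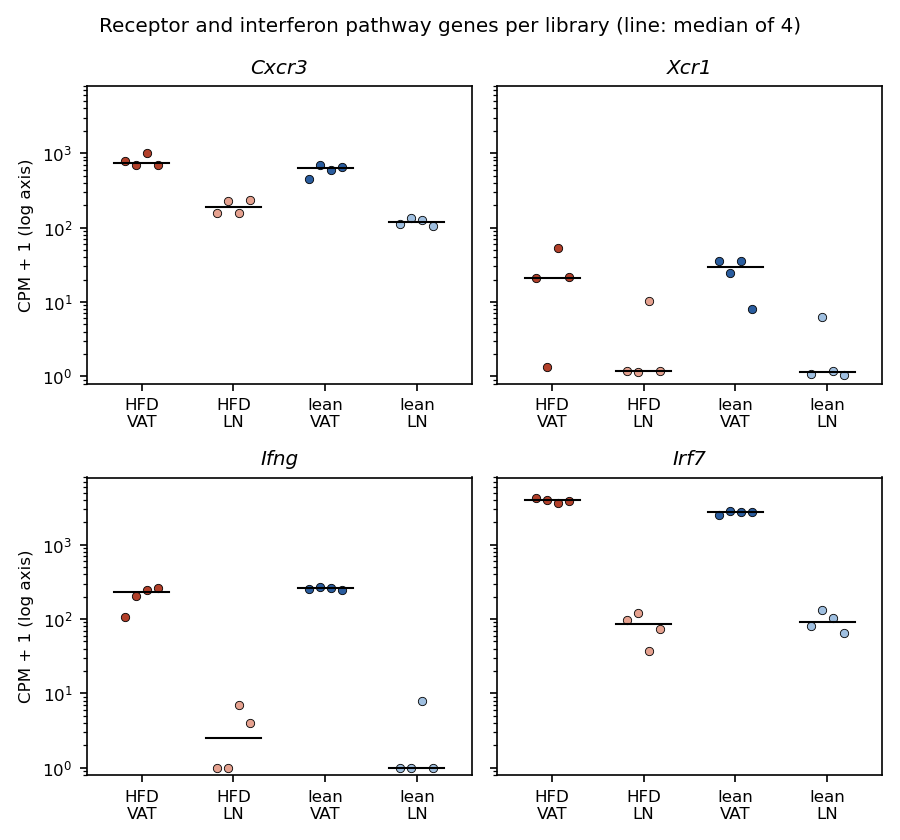
CPM + 1 on a log axis for the receptors Cxcr3 and Xcr1 and for Ifng and Irf7 in the 16 libraries; points are libraries and lines are medians of 4. Cxcr3 and Irf7 are apart between VAT and LN in both diets, and the LN libraries of Xcr1 and Ifng are scattered down to 0 or near it.

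Genes of the interferon signal, known to act before Cxcl9 and Cxcl10, were all 14 tested. In HFD VAT against HFD LN 6 rose and 1 fell, and in lean VAT against lean LN 5 rose and 1 fell. Of all 15675 tested genes, 714 were called in HFD mice, with 420 (2.68% of those tested) higher in VAT. In lean mice 476 were called, with 332 (2.12% of those tested) higher in VAT. The median log2 difference of the 14 was 1.08 in HFD mice and 0.74 in lean mice, beside -0.10 and 0.00 over all tested genes. Irf7, a factor that amplifies type I interferon, averaged 3931 ± 275 CPM in HFD VAT and 81.5 ± 36.0 CPM in HFD LN, and 2722 ± 169 CPM in lean VAT and 93.7 ± 28.8 CPM in lean LN (SD, n = 4 each; edgeR adjusted p = 8.63e-07 in HFD mice and 3.43e-06 in lean mice). Jak1, the kinase on both kinds of interferon receptor, fell by 0.97 ± 0.19 SE on the log2 scale in HFD VAT (edgeR adjusted p = 0.00725) and by 1.29 ± 0.19 SE in lean VAT (edgeR adjusted p = 0.0011).

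Of 14 genes that the antigen receptor induces or that belong to NF-kB, 8 rose in VAT in each diet and none fell. Their median log2 differences were 1.67 in HFD mice and 1.77 in lean mice. Beside this list and the next, 2.68% of all tested genes rose in HFD mice and 2.12% in lean mice. Tnfaip3, an inhibitor of NF-kB that NF-kB induces, averaged 1961 ± 576 CPM in HFD VAT and 116 ± 33.5 CPM in HFD LN, and 1806 ± 635 CPM in lean VAT and 111 ± 39.9 CPM in lean LN (edgeR adjusted p = 2.05e-05 in HFD mice and 3.18e-05 in lean mice). Junb, a subunit of AP-1, rose 3.74-fold in HFD VAT (edgeR adjusted p = 3.45e-05) and 3.89-fold in lean VAT (edgeR adjusted p = 4.3e-05). Of 7 effector transcription factors 1 rose in each diet, Id2, a regulator of CD8 effector cells. Id2 was 11.4-fold higher in HFD VAT (edgeR adjusted p = 8.63e-07) and 11.6-fold higher in lean VAT (edgeR adjusted p = 1.46e-06).

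Of 6 cytokine genes 1 rose in each diet, Il2, at a low level: 14.6 ± 4.43 CPM in HFD VAT and 1.68 ± 0.668 CPM in HFD LN (edgeR adjusted p = 0.013), and 19.5 ± 9.21 CPM in lean VAT and 2.86 ± 0.478 CPM in lean LN (edgeR adjusted p = 0.0308; SD, n = 4 each). Its lean call was lost without lean LN 1, 2, 3 or 4 or lean VAT 2 or 3 (adjusted p between 0.0574 and 0.106), and both Il2 calls were lost without a filter on low counts (adjusted p = 0.116 in HFD mice and 0.259 in lean mice). Ifng, the inducer of Cxcl9 and Cxcl10, averaged 205 ± 68.7 CPM in HFD VAT and 2.22 ± 2.83 CPM in HFD LN, and 257 ± 11.5 CPM in lean VAT and 1.72 ± 3.43 CPM in lean LN, with no overlap. It did not pass edgeR's test (adjusted p = 0.14 in HFD mice and 0.155 in lean mice), whereas limma voom called it in both diets (adjusted p = 0.00289 in HFD mice and 0.00134 in lean mice). Without lean LN 3, the lean LN library with Ifng counts, the adjusted p was 0.0141. Srgn, the proteoglycan core that holds chemokines in granules, rose 2.55-fold in HFD VAT (edgeR adjusted p = 0.000378) and 2.55-fold in lean VAT (edgeR adjusted p = 0.000493), the 1 of 2 storage and cleavage genes to do so. Beside these 2 lists, 2.68% of all tested genes rose in HFD VAT against HFD LN and 2.12% in lean VAT against lean LN. By edgeR no gene of the lists of receptors, interferon signal, NF-kB, effector factors, cytokines and storage passed in either comparison of diet or in the difference between them.

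The genes most like each member over the 16 libraries, by Pearson's r of log2(CPM + 1) among 8129 genes at a mean of 10 CPM or more, are given as a description, since the libraries fall into a VAT and an LN cluster. For Cxcl10 they were Gzmb, the serine protease of cytotoxic granules (r = 0.997), Asb2 (r = 0.992) and the class I gene H2-D1 (r = 0.990). For Ccl3 they were Gvin2 (r = 0.983), the interferon-induced Mx1 (r = 0.976) and Gvin1 (r = 0.974), and for Ccl4 Bst2 (r = 0.965), Xaf1 (r = 0.961) and Oas1g (r = 0.959). For Ccl5 they were Ctla2a (r = 0.961), Plac8 (r = 0.949) and Hmgb2 (r = 0.948), and for Xcl1 the interleukin receptor chain Il2rb (r = 0.938), Id2 (r = 0.929) and Cd38 (r = 0.926). Among the members themselves, r ran from 0.835 between Ccl5 and Xcl1 to 0.937 between Ccl3 and Cxcl10.

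Markers of other cells moved with tissue beside these results. The summed level of 12 macrophage markers ranged from 33.4 to 145 CPM in HFD VAT, 0.0171 to 2.43 CPM in HFD LN, 27.4 to 78.7 CPM in lean VAT and 0.126 to 6.13 CPM in lean LN. Most of it was Cd68 (26.5 to 131 CPM in HFD VAT and 18.9 to 78.6 CPM in lean VAT), while C1qa and Marco had no count in any library and Adgre1 reached at most 0.0268 CPM. In HFD VAT 1, C1qb had 25.7 CPM and Csf1r 9.73 CPM. The 7 dendritic cell markers summed to 39.4 to 110 CPM in HFD VAT, 0.29 to 7.74 CPM in HFD LN, 0.678 to 59 CPM in lean VAT and 0.0193 to 22.2 CPM in lean LN, mostly Itgax, which activated CD8 T cells also express. The 8 B cell markers summed to 169 to 360 CPM in HFD VAT, 1577 to 2347 CPM in HFD LN, 85.6 to 220 CPM in lean VAT and 1490 to 2650 CPM in lean LN.

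The 8 natural killer and innate lymphoid markers summed to 832 to 1131 CPM in HFD VAT, 1335 to 1752 CPM in HFD LN, 855 to 969 CPM in lean VAT and 1154 to 1857 CPM in lean LN, most of it Il7r, which naive and memory T cells also express (459 ± 125 CPM in HFD VAT, 1511 ± 189 CPM in HFD LN, 379 ± 88.4 CPM in lean VAT and 1386 ± 299 CPM in lean LN). Gata3 of that list went in opposite directions in the 2 diets. It averaged 44.7 CPM in HFD VAT and 72.4 CPM in HFD LN, and 82.1 CPM in lean VAT and 39.2 CPM in lean LN. Fcer1g, Klrb1c, Klrb1b, Rora and Tyrobp were higher on average in VAT in both diets. Fcer1g averaged 199 CPM in HFD VAT and 4.54 CPM in HFD LN, and 151 CPM in lean VAT and 11.5 CPM in lean LN. Klrb1c averaged 50.2 CPM in HFD VAT and 0.84 CPM in HFD LN, and 21.3 CPM in lean VAT and 0 CPM in lean LN. Rora averaged 234 CPM in HFD VAT and 36.8 CPM in HFD LN, and 251 CPM in lean VAT and 44.6 CPM in lean LN. Tyrobp averaged 12.8 CPM in HFD VAT and 0.859 CPM in HFD LN, and 18.7 CPM in lean VAT and 1.91 CPM in lean LN, whereas Ncr1 was at 0 except for 0.801 CPM in 1 lean VAT library. Over the 7 tested genes of the list, the median log2 difference was 3.90 in HFD mice and 3.29 in lean mice. Over all tested genes it was -0.10 and 0.00. Klrb1b had no count in LN, and Klrb1c had none in lean LN. Both passed the filter through VAT, so the medians describe the list and are no test of it. The 6 neutrophil markers reached 29.7 CPM in HFD VAT, 0.213 CPM in HFD LN, 11.6 CPM in lean VAT and 0.219 CPM in lean LN. In VAT this was nearly all Mmp9 (at most 29.6 CPM in HFD VAT and 11.6 CPM in lean VAT), and S100a8 and S100a9 had no count in any library. The 10 stroma and fat markers summed to 43.6 to 139 CPM in HFD VAT, 124 to 205 CPM in HFD LN, 29.5 to 79.4 CPM in lean VAT and 71.2 to 168 CPM in lean LN. Most of it was Pecam1, an endothelial gene that leukocytes also express (65.7 CPM in HFD VAT, 159 CPM in HFD LN, 47.0 CPM in lean VAT and 113 CPM in lean LN on average). Dcn reached 40.4 CPM in HFD VAT (median 0.0873 CPM), and Col1a1 reached 11.9 CPM in lean VAT (median 0.157 CPM). Adipoq, Plin1 and Fabp4 stayed at or below 0.198 CPM in every library. The 8 T cell markers summed to 9361 to 9997 CPM in HFD VAT, 7810 to 8773 CPM in HFD LN, 8386 to 11011 CPM in lean VAT and 7719 to 9355 CPM in lean LN. The 4 CD4 T cell markers ranged from 0.321 to 5.15 CPM in HFD VAT, 21.7 to 40.0 CPM in HFD LN, 4.97 to 26.4 CPM in lean VAT and 24.5 to 32.5 CPM in lean LN. In LN this was nearly all Cd40lg (27.7 CPM in HFD LN and 28.5 CPM in lean LN on average). In lean VAT it was mostly Zbtb7b (9.79 CPM on average). In 32 exact two-sided permutation tests of the sums the smallest p was 0.0286, the lowest that 4 against 4 libraries allow, and 0.102 after Benjamini-Hochberg adjustment. The part of these cells in the ligand levels was not tested.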

How the data were processed

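Bulk RNA-seq of 16 libraries was analysed. The authors deposited whole-number read counts per gene symbol. The tools named, per the submitters' processing notes, are kallisto 0.42.4 and DESeq2; the notes give GRCh38, a human build, although the symbols are mouse, so the build of the counts is unresolved and no coordinates of theirs are used. The labels give conflicting library kits and sequencers and a growth protocol for human fibroblasts, so read length and strand are unresolved; without strand, a gene and its antisense partner cannot be told apart. Pseudoalignment can split reads between similar sequences.

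The counts were fitted with edgeR 4.0.16 (R 4.3.3; TMM scaling, filterByExpr, robust quasi-likelihood test) over all 4 groups with no covariate, leaving 15675 genes. An adjusted p under 0.05 over all of them was called. SE is the log2 difference over the square root of F. Fold changes are ratios of group mean CPM. Floors of 3 counts cover counting error only. The steps were tested on simulated data. Alternatives used DESeq2 1.42.0, limma 3.58.1, other scalings and filters, a replicate block and 16 omissions of a library.

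The members, gene lists and robust setting were chosen with earlier results of these data known. Besides the members, the rule named up to 2 genes per list, direction and comparison by smallest adjusted p, fixed genes (among them Ifng, Cxcr3 and Xcr1), other ligands at a group mean of 5 CPM, and per member the 3 genes of highest r. Some named genes are not reported here. Exon lengths came from GENCODE vM21 and start-site windows from RefSeq; Ccl4 and Ccl5 had no window. Total counts ran from 40212388 to 65957407 per library.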

Additional observations from a re-analysis of the deposited data

Results flagged for a closer look

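Of 78 sets of 4 libraries examined for the members and the other named genes, 12 held a library set apart from the other 3 by a gap beyond Dixon's 95% critical share of the range. That share sets apart about 1 in 20 groups by chance only if values are normally distributed. The rate does not apply to these CPM, since any set with 3 libraries at 0 and 1 above it is flagged. The number flagged is therefore no measure of an excess. Among the members, Ccl3 had 3.81 CPM in HFD LN 4 and 0 in the other HFD LN libraries. Cxcl10 had 10.6 CPM in lean LN 3, with 0.146 CPM next, and Cxcl9 had 0.699 CPM in HFD VAT 4, with 0.0218 CPM next.

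Among the other genes, lean LN 3 also stood apart for Ifng, at 6.87 CPM with 0 in the other lean LN libraries. Xcr1 stood apart at 9.38 CPM in HFD LN 3 and at 5.28 CPM in lean LN 2. Tnfaip3 had 860 CPM in lean VAT 1, below the rest, and 171 CPM in lean LN 4, above the rest. Ccl2 had 0.425 CPM in HFD LN 4. HFD VAT 4 stood apart for Ccl7 at 8.27 CPM and for Ccl9 at 23.0 CPM, and lean VAT 1 for Ccl8 at 47.7 CPM.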

How the results depend on the processing

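Over 16 omissions of a library and 10 other settings, no tissue difference of a member changed direction, and the calls of Ccl5 in both diets and of Xcl1 in lean mice held. The HFD call of Cxcl10 held wherever an adjusted p was given; DESeq2 gave none. Members called in HFD VAT against HFD LN were 2 (stricter filter 3, DESeq2 4, limma voom 5, omissions 2 to 3) and in lean VAT against lean LN 3 (DESeq2 4, limma voom 5; 2 with no filter, on the groups compared alone, with the block and without 3 VAT libraries in which many genes had few counts; omissions 2 to 3); in VAT between diets limma voom called 1, Cxcl10. The lean call of Cxcl10 was lost without the filter (adjusted p = 0.0699), on the groups compared alone (0.1) and without those 3 VAT libraries (0.111), a setting added after seeing the data. Genes called in HFD VAT against HFD LN were 714 in both directions (no filter 441, DESeq2 2578, omissions 483 to 632) and in lean VAT against lean LN 476 (DESeq2 1569, limma voom 1373, omissions 325 to 492). Between the diets in VAT they were 9 (no filter 2, DESeq2 769, limma voom 32, groups compared alone 0, without the 3 VAT libraries 62, omissions 3 to 40), in LN 0 (DESeq2 236, limma voom 3, omissions 0 to 1) and for the difference of diet effects 3 (upper quartile, no filter and stricter filter 1 each, DESeq2 635, limma voom 6, without the 3 VAT libraries 46, omissions 0 to 24). Sign changes touched uncalled diet differences, on the log2 scale: Ccl3 in VAT (upper quartile -0.01, stricter filter -0.04, omissions -0.11 to 0.14), Ccl5 in VAT (omissions -0.32 to 0.04), Ccl4 in LN (omissions -0.61 to 0.80), Xcl1 in LN (1.15 by edgeR, limma voom -0.03) and the difference for Ccl4 (stricter filter -0.02, limma voom -0.90, omissions -0.66 to 0.76). Among other named genes, Jak1 in HFD mice lost its call with limma voom (0.199), Il2 without the filter (0.116 in HFD mice and 0.259 in lean mice) and, in lean mice, on the groups compared alone (0.112) and without the 3 VAT libraries (0.055), and Pf4 in lean mice without the filter (0.0998). Same-numbered libraries deviated together by correlations of -0.098 to 0.045, and 5 of 16 pairs were highest with their own number. These values show no shared deviation by number but cannot tell whether same-numbered VAT and LN libraries came from the same mice. With a replicate block, 1 gene was called between diets in VAT and 0 for the difference, the lean adjusted p was 0.0549 for Cxcl10 and 0.177 for Pf4, both Il2 calls were lost (0.0515 in HFD mice and 0.0992 in lean mice), Ccl3 was -0.15 between diets in VAT and Ccl4 -0.04 in LN. The causes of these changes were not tested. Counts at or near 0 in LN limit the folds.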
